A study of Drosophila melanogaster with 3 samples.

Results

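The regions described here are binding peaks of the GFP-tagged protein CG12104 that lie just upstream of a promoter which has no neighbour firing the other way. They were chosen by position alone. A peak of the reproducible set was a member when its summit, the base of highest signal, lay 1 to 500 bp upstream of the nearest start site of a protein-coding gene, and when no protein-coding gene on the opposite strand started within 500 bp of that summit. Of 4060 reproducible peaks, 1019 met this rule, which is 25.1% of the set and 50% of the 2040 peaks near a start site. Also near a start site were 718 upstream peaks with an opposing start site (divergent peaks) and 303 at or downstream of the start site. The remaining 2020 peaks lay over 500 bp from the nearest protein-coding start site (distal peaks).

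The binding of the protein was mapped by ChIP-seq, the sequencing of DNA that is precipitated with a chromatin protein, in whole Drosophila melanogaster embryos of mixed sex collected over 0 to 24 h, in 3 biological replicates that form 1 group. All embryos came from 1 transgenic line that carries CG12104 extended by GFP at the C-terminus, in a strain whose other alleles the labels do not state, and the fusion was precipitated through GFP. Chromatin was sonicated to fragments of 200 to 800 bp, so a summit is located less finely than its coordinate implies. Untagged embryos and control libraries were not analysed here, and because the region lists carry signal values without read numbers, library depth is unknown. The collection mixes all stages and cell types of embryogenesis, and a peak present in a few cells cannot be told apart from a weak peak in many.

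CG12104 is an uncharacterized protein in the RefSeq annotation and is grouped here with the HMG-box proteins. The HMG box is a fold that in well-studied family members inserts into the minor groove of DNA and bends it. Many HMG-box proteins, such as HMGB-type chromatin proteins, show little sequence preference beyond A+T-rich or bendable DNA, while Sox and TCF proteins recognise short words. The stretch just upstream of an active start site is usually depleted of nucleosomes and carries the core promoter and its proximal elements. In the compact fly genome many promoters lie back to back with that of a neighbour, and the promoters considered here are those that do not.

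The sequences at the strongest member peaks are shown because all but 1 carry marked A+T runs, a contrast taken up with base composition later. Each is 121 bp long, centred on the summit of 1 of the 6 highest-signal members on the arms printed here (X, 2L, 3L and 3R), and written 5′ to 3′ along the strand of the nearest gene, with the start site to the right. The letters are those of the NCBI Release 6 assembly (dm6). Capitals mark unbroken runs of at least 8 A or T bases. Runs of this length are common: within 50 bp of the point 205 bp upstream of all 19253 start sites, the median longest run was 9 bp. Among the 6 shown, the longest runs of Ugalt and CG14100 were 11 and 10 bp, short of the 12 bp used for A+T runs later. The CG14100 run lay near the edge of its window. Within 50 bp of the summit, the longest runs of CG14100 and ph-p were 7 bp, below that median. The windows are chrX:2703839-2703959 (minus strand) for Ugalt, chr3L:19590577-19590697 (minus) for CG14100, chr3R:12449125-12449245 (plus) for CG18549, chr2L:8205213-8205333 (minus) for SLC5A11, chr3R:23669765-23669885 (minus) for CG31145 and chrX:2137234-2137354 (minus) for ph-p.
Ugalt: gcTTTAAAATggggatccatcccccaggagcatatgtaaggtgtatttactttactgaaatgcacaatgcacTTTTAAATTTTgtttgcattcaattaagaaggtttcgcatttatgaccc
CG14100: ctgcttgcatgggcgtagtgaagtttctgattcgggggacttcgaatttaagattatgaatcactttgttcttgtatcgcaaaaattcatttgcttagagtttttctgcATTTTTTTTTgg
CG18549: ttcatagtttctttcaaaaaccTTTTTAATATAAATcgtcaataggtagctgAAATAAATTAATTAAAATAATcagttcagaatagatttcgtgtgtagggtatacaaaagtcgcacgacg
SLC5A11: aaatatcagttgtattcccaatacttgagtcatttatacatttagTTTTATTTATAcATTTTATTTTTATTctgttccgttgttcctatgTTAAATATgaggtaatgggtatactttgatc
CG31145: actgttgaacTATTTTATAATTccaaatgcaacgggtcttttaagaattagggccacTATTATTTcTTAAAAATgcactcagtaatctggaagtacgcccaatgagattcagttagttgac
ph-p: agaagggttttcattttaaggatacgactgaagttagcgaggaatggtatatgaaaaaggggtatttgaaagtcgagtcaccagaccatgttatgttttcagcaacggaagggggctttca
The CG18549 window held an unbroken A+T run of 21 bp and SLC5A11 held 3 runs of up to 14 bp, with G+C contents of 28.9% and 25.6% over the window. The ph-p window held no such run and had 41.3% G+C, so a long A+T run was not shared by all of the strongest peaks.

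A contrasting kind of member lay within 100 bp of the start site of genes for the translation machinery. The 2 highest ribosomal protein members and the 2 highest members with the DNA replication-related element (DRE, TATCGATA, the word bound by the factor DREF) on the same arms are shown next, and RpS10b is in both pairs. These 3 were chosen after their values were seen. Capitals here mark only the DRE. The windows are chr3L:1668675-1668795 (minus strand) for RpL23A, chrX:19597918-19598038 (plus) for RpS10b and chr3R:29220074-29220194 (plus) for eEF1gamma.
RpL23A: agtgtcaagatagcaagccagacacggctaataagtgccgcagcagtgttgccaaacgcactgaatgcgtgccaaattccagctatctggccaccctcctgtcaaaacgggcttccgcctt
RpS10b: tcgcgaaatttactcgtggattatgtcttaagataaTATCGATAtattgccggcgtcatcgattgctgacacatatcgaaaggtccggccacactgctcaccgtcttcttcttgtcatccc
eEF1gamma: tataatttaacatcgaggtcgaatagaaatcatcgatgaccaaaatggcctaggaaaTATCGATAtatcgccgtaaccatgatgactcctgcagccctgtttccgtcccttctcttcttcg
G+C content over these windows was 53.7% for RpL23A, 45.5% for RpS10b and 43.0% for eEF1gamma, higher than in each of the 6 windows of the strongest members.

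Members covered 900 genes as nearest gene. A single member was found at 795 of them, 2 at 93, 3 at 10 and 4 at 2 genes. The genes with 4 were larp, which encodes a La-related RNA-binding protein, and Rtnl1, which encodes a reticulon of the endoplasmic reticulum. At Rtnl1 the 4 summits lay upstream of 4 different start sites, at −270, −282, −333 and −252 bp, with pooled signals of 763, 149, 239 and 378. Ptpmeg2, which encodes a protein tyrosine phosphatase, had 3 members at 3 start sites, all between −218 and −201 bp, with pooled signals of 609, 529 and 383. The cyclic AMP phosphodiesterase gene dnc likewise had members at 3 start sites, between −320 and −307 bp. These 3 genes were picked after their positions were seen, and at each the peaks sat at similar distances from different promoters. This was not so at every gene with members at several start sites. At Moe the members at 3 start sites lay at −472, −298 and −81 bp, and those at larp ran from −351 to −101 bp. Elsewhere several members lay at the same start site: at spi, which encodes an epidermal growth factor receptor ligand, 2 were at −198 and −399 bp from one start site. Another reproducible summit, of a member or of another class of peak, lay within 500 bp of 193 members. Such neighbouring peaks were not independent of one another.

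The summits had a median position of −205 bp, with quartiles at −313 and −120 bp. Within 100 bp of the start site lay 200 members, at 101 to 200 bp 293, at 201 to 300 bp 249 and at 301 to 500 bp 277. The rule fixed the range of these positions, and 493 members lay closer to the start site than the length of the smallest fragments. Because less and less sequence satisfies the rule with distance, summits were also counted per megabase (Mb) of sequence where a summit would have been a member. This density was 138 per Mb at 1 to 50 bp, 232 per Mb at 151 to 200 bp and 97.1 per Mb at 451 to 500 bp. The highest density therefore lay away from the start site rather than at it.

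The same shape was present in each replicate when its own 4060 regions of highest signal were taken. At 151 to 200 bp the 3 replicates gave 227, 237 and 238 summits per Mb (234 ± 5.97, SD, n = 3). At 1 to 50 bp they gave 160, 104 and 110 per Mb (125 ± 30.7). At 451 to 500 bp they gave 73.3, 91.6 and 91.6 per Mb (85.5 ± 10.6). The ranges at 151 to 200 bp and at both ends did not overlap. Replicate 1 stood above the others close to the start site, with 211 per Mb at 51 to 100 bp against 144 and 160.

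**Figure D1:**
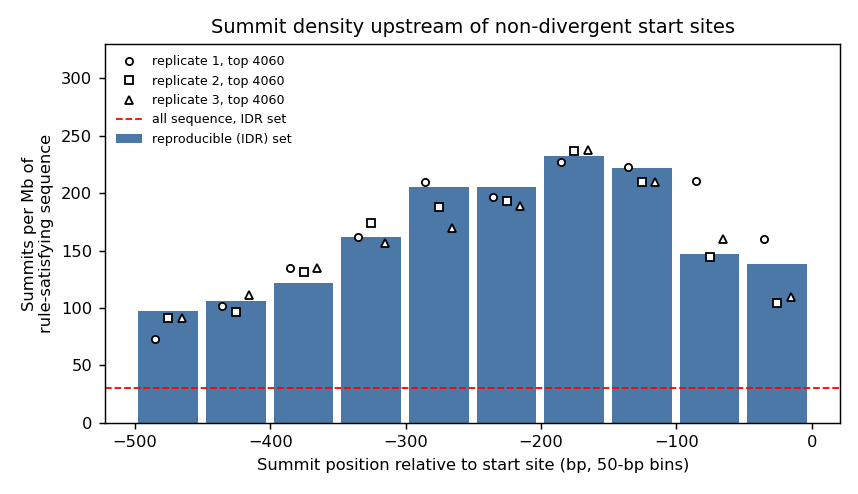
Reproducible-peak summits per Mb of rule-satisfying sequence (bars) against position relative to the start site in 50-bp bins, with the 3 replicates' own 4060 highest regions as open symbols; the dashed line is the density over all sequence, 30.3 per Mb. Density was highest at 151 to 200 bp upstream, 232 per Mb, and lower at both ends.

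Taken over all 6.17 Mb of such sequence, the density was 165 reproducible peaks per Mb. The replicates' own highest regions gave 173, 158 and 158 per Mb (163 ± 8.51). Divergent upstream sequence was far denser, at 1103, 864 and 815 per Mb, and sequence downstream of start sites was sparser, at 47.3, 30.6 and 38.4 per Mb. Distal sequence gave 15.2, 18.6 and 18.3 per Mb. The 4 ranges did not overlap, so non-divergent promoters stood between divergent promoters and the rest of the genome in every replicate. These differences in density are descriptions, since position is what defines the classes.

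Not every candidate region upstream of a non-divergent promoter reached the reproducible set. The pooled list held 3396 candidates that satisfied the positional rule, and 1019 of them, or 30.0%, were in the reproducible set. Over all 26959 candidates the share was 15.1%. It was 51.4% at divergent promoters, 13.1% at or downstream of start sites and 10.2% at distal candidates. The share at non-divergent upstream candidates was thus above the background but below that of divergent ones.

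Members lay in several kinds of surroundings. Between protein-coding genes were 597 members (58.6%), of which 31 lay inside a noncoding gene. Inside the body of their own gene, upstream of one of its internal start sites, were 345 (33.9%), 307 of them in an intron and 38 in an untranslated exon. Inside another protein-coding gene were 77 (7.56%). Sequence satisfying the rule was distributed otherwise, with 51.9% between genes, 25.5% inside the own gene and 22.6% inside another gene.

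Per Mb of rule-satisfying sequence, internal promoters of the own gene carried 219 members and intergenic promoters 186, whereas promoters lying in another gene carried 55.3. In the 3 replicates the density was 220, 222 and 234 per Mb inside the own gene (225 ± 7.8). Inside another gene it was 57.4, 53.1 and 55.3 per Mb (55.3 ± 2.15). The difference was 170 ± 8.11 per Mb, in the same direction in 3 of 3 replicates, with an exact two-sided sign-flip p of 0.25, the smallest that 3 replicates can give, so that 0.05 cannot be reached by this test here. The own-gene and intergenic densities were closer, with intergenic values of 200, 172 and 166 per Mb, and differed by 46 ± 24.2 per Mb (higher inside the own gene in 3 of 3, exact p = 0.25).

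Coding exons made up 6.4% of the rule-satisfying sequence and held 2 of the 1019 members. The density there was 5.06 per Mb, against 165 over all rule-satisfying sequence. The replicates' own highest regions put 3, 3 and 4 summits in coding exons (8.43 ± 1.46 per Mb), so this scarcity was present in each.

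Among members between genes, 388 (65.0%) had their upstream neighbour in tandem, on the same strand, and 209 (35.0%) had it head to head but too far to count as divergent. A tandem neighbour ended at a median of 489 bp from the summit, within 500 bp at 199 members and within 1000 bp at 252. At those 199 the peak sat in a short gap between the end of one gene and the start of the next. Head-to-head neighbours lay at a median of 1442 bp. The pooled signal was alike in both arrangements, with medians of 172 and 173, and so was the share with a long A+T run, 38.4% and 39.7%. Members in the own gene body had a median signal of 197 and a median position of −251 bp, against 173 and −174 bp for members in sequence with no annotated gene.

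The rule counted only protein-coding start sites. A noncoding transcript started on the opposite strand within 500 bp at 67 members (6.58%). At 116 members (11.4%) an opposing protein-coding start site lay between 501 and 1000 bp away, and at 481 it lay beyond 5000 bp. Members just inside this limit included CtsK1 and CG42613, at 501 bp from the opposing start site with pooled signals of 111 and 206. Just outside it lay app at 499 bp (389), CG4949 at 492 bp (110) and Gnpat at 491 bp (143). At the limit on distance upstream, lola, CG42336 and CG17896 were members at −500 bp with pooled signals of 366, 156 and 592, and the summits near CG43736 at −502 bp (625), t-cup and shn at −503 bp (233 and 115) were not. The peak at the CG12104 gene itself was not a member, since its summit lay between CG18170 and CG12104 in divergent orientation, 133 and 147 bp from their start sites.

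Members were spread over the chromosome arms, with 234 on 3R, 206 on 2R, 197 on 2L, 195 on 3L, 180 on X and 7 on 4. Pooled signal, the authors' value per region on the scale of its own list, ran from 106 to 1897 with a median of 185. The median over all reproducible peaks was 167.

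The strongest member lay 47 bp upstream of Ugalt, which encodes a transporter of UDP-galactose into the Golgi, on X:2703685-2704098 in the dm6 build. Its pooled signal was 1897, and among all regions of a replicate it ranked 5, 2 and 1 in replicates 1, 2 and 3. CG14100, on 3L:19590432-19590813, followed with 1829 and ranks of 2, 3 and 3. Its summit, at −113 bp, sat in a gap downstream of ash1, which ended 136 bp away in tandem. The third was px, the wing-vein gene plexus, on 2R:22514136-22514489 with 1530 and ranks of 8, 6 and 5, and its summit lay 195 bp upstream of a start site inside the px gene.

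The members ranked 4, 7 and 10 by pooled signal were at genes of known function. The mitochondrial ribosomal protein gene mRpL41 had a signal of 1490 and ranks of 9, 5 and 11 with a summit at −136 bp. Fkbp14, a prolyl isomerase gene of the FK506-binding family, had 1149 and ranks of 13, 25 and 18. Gapdh2, one of the glyceraldehyde-3-phosphate dehydrogenase genes of glycolysis, had 1044 and ranks of 16, 44 and 21. These 3 genes kept to the first 44 ranks in each replicate.

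Regulators were also among the 20 strongest. The gene ph-p encodes a subunit of Polycomb repressive complex 1, and its peak, in an intron on X:2137181-2137537, had a signal of 1120 and ranks of 30, 11 and 14. This was the most distant of the 20 summits, at −439 bp. The gene gish, which encodes a casein kinase 1 gamma, had 904 and ranks of 44, 40 and 35. The RNA-binding gene larp had 864 and ranks of 48, 49 and 37. The peak at bbx (bobby sox), itself an HMG-box gene, had 809 and ranks of 54, 64 and 49 at −188 bp, on X:21367687-21367996.

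The rest of the 20 were CG18549, SLC5A11, CG31145, Tina-1, CG1888, RluA-1, E23, CG13921, brwl and CG1142, with signals from 1243 to 778. Over all 20, ranks in the replicates ran from 1 to 110. The widest range relative to the lowest rank was that of Ugalt, from 1 to 5, and the widest in absolute ranks that of CG13921, at 110 in replicate 1 against 51 and 46. The 20 summits had a median position of −161 bp, 16 lay within 200 bp of the start site and 13 in sequence with no annotated gene.

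**Figure D2:**
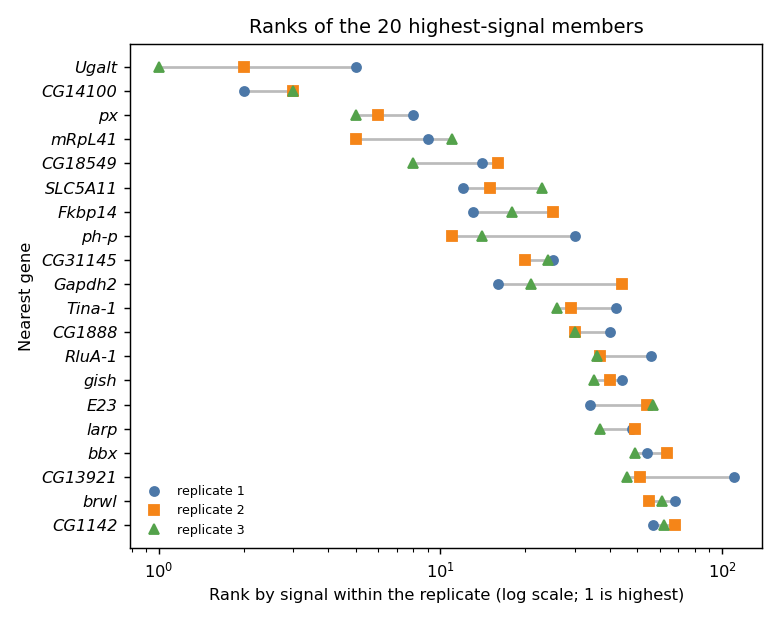
Rank by signal within each replicate (log scale, 1 is the highest) of the 20 members with the highest pooled signal, 1 row per nearest gene, with a grey line from the lowest to the highest rank. All 60 ranks lay between 1 and 110; on this scale the longest line is that of Ugalt, with ranks of 5, 2 and 1.

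At the low end of the reproducible set, RpS7, Smyd3 and Tomosyn had members with a signal of 106. Smyd3 ranked 5086, 3996 and 2593 in the replicates and Tomosyn 4531, 3826 and 4690. The RpS7 member, at −282 bp, had ranks of 882, 1450 and 1022. These were the same as those of the stronger RpS7 member at −59 bp, so they do not describe the weaker peak alone. Regions of 5 genes had the widest spread of ranks. dre4, which encodes the FACT subunit Spt16, ranked 1279, 11055 and 28401. pyd, encoding the junction scaffold Polychaetoid, ranked 1696, 20460 and 1678. Tsp42Eo, Ten-m and CG12384 also moved widely, to ranks of 20560, 16004 and 17768 in 1 replicate each. In each of these 5 cases 1 or 2 replicates placed the region far below its rank in the pooled list.

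Over all members, 88.0%, 90.9% and 84.6% were among the 4060 highest regions of replicates 1, 2 and 3 (87.8% ± 3.14), and 720 members (70.7%) were so in all 3. The corresponding value over all reproducible peaks was 85.3% ± 3.24, with 66.4% in all 3. A peak took the rank of the strongest region that overlapped it, so a weak peak could take that of a stronger neighbour. With summits required to lie within 100 bp of each other, the mean share of members was 80.2%. The median over members of the highest rank divided by the lowest was 1.92, and 1007 of 1019 matched a region in all 3 replicates. Within a replicate, the median signal of members was 0.94, 1.09 and 1.19 times that of divergent peaks (1.07 ± 0.125, exact sign-flip p = 0.5), so replicates differed on which class was stronger. It was 1.08, 1.18 and 1.17 times that of peaks at or downstream of start sites (1.14 ± 0.0566, higher in 3 of 3, exact p = 0.25). Each class held only peaks above the same pooled signal limit of the reproducible set. The ratios thus leave out candidates below it, a larger share of the non-divergent than of the divergent ones.

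The replicates' own highest regions also gave a stable number of members, 1067, 975 and 977 (1006 ± 52.5). The share of members among promoter peaks was 47.2%, 52.5% and 51.7% (50.5% ± 2.89). Their median position was −195, −209 and −204 bp (−203 ± 7.09). Replicate 1 stood apart from the other 2 in each of these, with more members, a lower share and a position closer to the start site. It also had more promoter regions in all, 2262 against 1856 and 1889, and the part of that difference in these values was not tested.

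Base composition was not used by the rule. Within 25 bp of the summit, members had a mean G+C content of 33.0%, with quartiles of 25.5% and 39.2%. All sequence satisfying the rule had 39.5%, and 771 members (75.7%) lay below that value. In the replicates' own regions the mean was 34.3%, 31.8% and 33.1% (33.1% ± 1.23). This comparison was added after the sequences had been looked at.

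The A+T-rich stretch was local. In 10-bp steps along the gene strand, mean G+C content of members was 39.3% at −300 to −291 bp from the summit, on the side away from the gene, 31.6% at −50 to −41 bp and 47.6% at 270 to 279 bp towards the gene. Over 501 bp around the summit the mean was 37.9%. The lowest step lay slightly on the far side of the summit, but nearby steps differed little, with 32.4% at 0 to 9 bp. Fragments of 200 to 800 bp do not place a summit this finely. The profile was asymmetric, rising more on the side where the rule puts the start site.

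**Figure D3:**
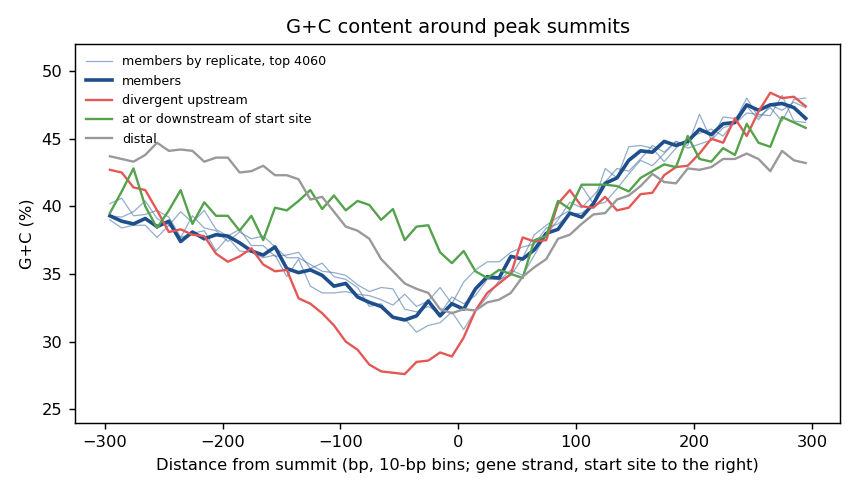
Mean G+C content in 10-bp steps around the summit, oriented so that the start site of the nearest gene is to the right, for members (thick line), members by replicate (thin lines) and the 3 other classes of peak; the vertical axis does not start at 0. Members fell to 31.6% just before the summit and reached 47.6% on the gene side.

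A low G+C content at the summit was shared with other classes. Divergent peaks were lower still, at 30.4%, distal peaks had 32.5% and peaks at or downstream of start sites had 36.2%. Members exceeded divergent peaks by 3.0, 1.9 and 2.4 percentage points in the 3 replicates (2.43 ± 0.551, exact sign-flip p = 0.25). They were below peaks at or downstream of start sites by 3.9, 4.2 and 5.0 points (−4.37 ± 0.569, exact p = 0.25). Against distal peaks the direction depended on the regions taken: members were higher in the reproducible set, at 33.0% against 32.5%, and lower in the replicates' own regions, by 0.2, 0.9 and 0.5 points (−0.533 ± 0.351, exact p = 0.25).

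Among members, higher signal went with lower G+C content. In 4 equal groups ordered from the lowest to the highest pooled signal, the mean was 35.9%, 34.0%, 31.5% and 30.4%. The 20 strongest averaged 28.7%. Distance from the start site was not held fixed in this comparison. The 200 members within 100 bp had the highest G+C content of the 4 distances below, 42.1%, and the lowest median signal, 159. Candidates that met the positional rule but stayed outside the reproducible set, 2377 in all, had 38.7%, close to the 39.5% of the sequence they were drawn from.

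Distance from the start site separated 2 patterns. At 101 to 200 bp upstream, member summits had 30.6% G+C where the sequence had 38.7%. At 201 to 300 bp they had 29.9% against 37.9%, and at 301 to 500 bp 31.6% against 38.7%. Within 100 bp of the start site the values were 42.1% and 43.0%. In the replicates' own regions the difference from the sequence was −7.83 ± 1.46 points at 101 to 200 bp and −2.5 ± 1.81 points within 100 bp, negative in 3 of 3 in both. The members nearest to the start site thus had a G+C content about that of their surroundings, while those farther upstream did not.

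**Figure D4:**
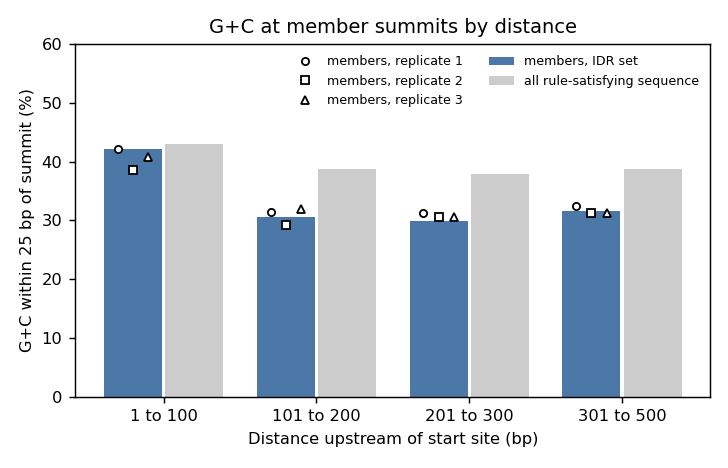
Mean G+C content within 25 bp of the summit of members (blue bars; replicates as open symbols) and of all rule-satisfying sequence (grey bars) at 4 distances upstream of the start site. Members had 42.1% against 43.0% within 100 bp and 29.9 to 31.6% against 37.9 to 38.7% beyond.

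Members within 100 bp also had the lowest median signal of the 4 distances, 159 against 203, 206 and 173 for the bins farther out. They were among the highest regions of all 3 replicates in 62.5% of cases, against 71.7%, 73.5% and 72.9%. A run of at least 12 A or T bases within 50 bp of the summit was found at 22.5% of them and at 49.8% of members 101 to 200 bp upstream. Fewer of the close members, then, were reproduced in every replicate or carried a long A+T run.

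Over all members, 394 (38.7%) had an A+T run of at least 12 bp within 50 bp of the summit. In the replicates' own regions the share was 38.1%, 42.8% and 38.2% (39.7% ± 2.69). The same windows placed 205 bp upstream of all 19253 protein-coding start sites held such a run in 28.5% of cases. Divergent peaks had 50%, distal peaks 34.9% and peaks at or downstream of start sites 30.7%. Members were below divergent peaks by 10.5 points in the replicates (−10.5 ± 1.93) and above peaks at or downstream of start sites by 11.5 ± 0.681 points, each in 3 of 3. The difference from distal peaks was smaller, 6.6 ± 1.97 points, also in 3 of 3 (exact sign-flip p = 0.25 for all 3).

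Short words known from fly promoters and from HMG-box proteins were counted on both strands within 100 bp of each summit. The search covered 21 words, some of which overlap, such as the site of the insulator protein BEAF-32, CGATA, which is contained in the DRE. No word occurred in at least 5% of members at over 1.5 times its share around protein-coding start sites. The Sox word AACAAT was found in 23.2% of members, in 23.9% of windows 205 bp upstream of all start sites and in 27.3% of divergent peaks. The TCF word CTTTGAT was found in 2.85% of members and 3.45% of the upstream windows. Neither word of the DNA-binding HMG-box families was thus more frequent at members than upstream of start sites at large.

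The DRE occurred in 49 members (4.81%), in 2.67% of upstream windows and in 6.45% of windows centred on start sites. In divergent peaks it occurred in 9.89%. In the replicates the share at members was below that at divergent peaks by 6.5 points (−6.5 ± 0.683, lower in 3 of 3, exact sign-flip p = 0.25). Members with a DRE lay close to the start site, at a median of −89 bp against −213 bp for those without, and their median signal was 143 against 187. Within 100 bp of the start site 30 of 200 members (15.0%) had one, at 101 to 200 bp 3.75% and at 301 to 500 bp 1.08%.

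The GAGA element GAGAGAG, the word of the GAGA factor found at many developmental promoters, showed the opposite order. It occurred in 57 members (5.59%) and in 0.418% of divergent peaks. The difference in the replicates was 5.76 ± 0.592 points, higher at members in 3 of 3 (exact sign-flip p = 0.25). Upstream windows of all start sites held it in 4.85% of cases, so the share at members was near that of promoters at large. Members with the element lay farther out, at a median of −260 bp.

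The TATA word TATAAA was found in 40.1% of members, against 32.2% of upstream windows, 26.9% of windows on start sites and 49.7% of divergent peaks. In distal peaks, away from protein-coding start sites, it occurred in 36.9%. Its share at members was lowest within 100 bp of the start site, 25%, and 47.0% at 201 to 300 bp. The E-box CAGCTG had a lower share at members, 6.38%, than in upstream windows, 9.02%, and than around start sites, 13.4%. Windows were not matched for G+C content, and its part in the differences for any word was not tested. No member held the palindrome GCGCATGCG, which allows a share of up to 0.294%.

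The genes next to members were compared with 14 gene lists defined by symbol. Of 10807 protein-coding genes that had at least 1 bp of sequence satisfying the rule, 923 had a member when start sites shared by 2 genes were counted for both, a background of 8.54%. Genes for ribosomal proteins and for HMG-box proteins were well above it. Chemosensory receptor and cuticle protein genes were at or near 0. No enrichment test of a list was made, and the replicates' values below describe the same genes. The shares were not scaled by the number of start sites or the length of rule-satisfying sequence of each gene. Genes differ in both, and the part of this in the differences between lists was not tested.

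Among cytoplasmic ribosomal protein genes, whose promoters are among the most active in growing cells, 27 of 60 (45.0%) had a member. The replicates' own regions gave 46.7%, 45.0% and 41.7% (44.4% ± 2.55), all far above the 8.38% ± 0.283 over all genes. Their peaks lay close to the start site. The 29 members had a median position of −42 bp and 27 of them lay within 100 bp of the start site, where they made up 27 of 200 members. Their mean G+C content at the summit was 44.2%, against 33.0% over all members, and 10 held a DRE. Within 100 bp of the start site, however, the 27 ribosomal protein members had 45.8% G+C and the other 173 members 41.5%, a smaller difference, and the sequence itself had 43.0%.

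RpL23A had the highest signal of this list, 537, on 3L:1668632-1668830, with signals of 166, 242 and 136 in the replicates and ranks of 304, 183 and 105. RpS10b had 489 and ranks of 188, 277 and 480. RpL24 had 398 with a summit only 7 bp upstream of its start site, and ranks of 683, 348 and 311. All 4 of the strongest, RpL37A included, were thus within the first 683 regions of each replicate, below the ranks of the 20 strongest members. RpS7 held both a member at −59 bp with a signal of 223 and one at −282 bp with 106. Its G+C content was 23.5% at the first and 15.7% at the second, the lowest of the list.

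Of 40 translation factor genes 9 (22.5%) had a member, and 7 of the 9 summits lay within 100 bp of the start site. In the replicates the share was 20%, 17.5% and 15.0% (17.5% ± 2.5). eIF6, which encodes an initiation factor that binds the large ribosomal subunit, was the strongest, with 674 and ranks of 202, 67 and 80. eEF1gamma, a subunit of the elongation factor that recharges eEF1A, had 661 and ranks of 139, 97 and 114. The mean G+C content at the 9 summits was 47.7%.

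Not all genes of protein synthesis had members. None of 14 aminoacyl-tRNA synthetase genes had one, which at this number allows a share of up to 21.4%. Mitochondrial ribosomal protein genes were at 2 of 21 (9.52%), near the background, although 1 of the 2 was mRpL41. Proteasome subunits were at 2 of 29 (6.9%) and genes of the respiratory chain and ATP synthase at 1 of 52 (1.92%). The last list varied between the replicates' own regions, at 7.69%, 0% and 1.92% (3.21% ± 4.0), and only replicate 1 came near the background.

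HMG-box and Sox genes, the list that holds CG12104 itself, had members at 7 of 17 (41.2%). The replicates gave 29.4%, 41.2% and 41.2% (37.3% ± 6.79). The 7 genes were bbx, Sox14, Sox102F, Hmg-2, HmgD, Sox100B and cic. None of their 8 summits lay within 100 bp of the start site, where 200 of all 1019 members lay. They ran from −188 to −447 bp, with a mean G+C content of 31.4%, near the 33.0% over all members. The ribosomal protein members, with 27 of 29 within 100 bp, did differ from members at large. So did the translation factor members, with 7 of 9.

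bbx was the strongest of the family. Sox14, an ecdysone-induced Sox gene needed for neurite pruning, had 702 on 2R:23978443-23978686, with signals of 237, 308 and 156 and ranks of 115, 84 and 72. Sox102F had 341 and ranks of 505, 493 and 1435, lower in replicate 3. HmgD, which encodes an abundant embryonic HMGB-type chromatin protein, had 142 and ranks of 2277, 2807 and 1155. cic, encoding the repressor Capicua of receptor tyrosine kinase target genes, had 113 and ranks of 7690, 3378 and 3357. Signals in the list ran from 113 to 809, and in replicate 1 Sox100B and cic fell below the 4060 highest regions.

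The remaining lists held few members. The general polymerase II machinery was at 3 of 30 (10%), with Taf4 the strongest at 371. The list of Hox and segmentation genes was at 3 of 28 (10.7%), with bcd, the anterior determinant, at 160, nkd, an inhibitor of Wnt signalling, at 147 and the Hox gene Dfd at 134. Cell cycle genes were at 2 of 32 (6.25%): CycE, encoding the cyclin of S-phase entry, had 504 and ranks of 199, 217 and 321, and E2f1 had 141. These lists were near the background of 8.54%.

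Insulator genes were at 1 of 9 (BEAF-32) and Polycomb and trithorax genes at 1 of 15, which was ph-p. Chemosensory receptor genes were at 0 of 164, which allows a share of up to 1.83%, and cuticle protein genes at 1 of 118 (0.847%). Chemosensory receptor genes had no member in any replicate's own 4060 highest regions, and cuticle protein genes had 1 in each.

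**Figure D5:**
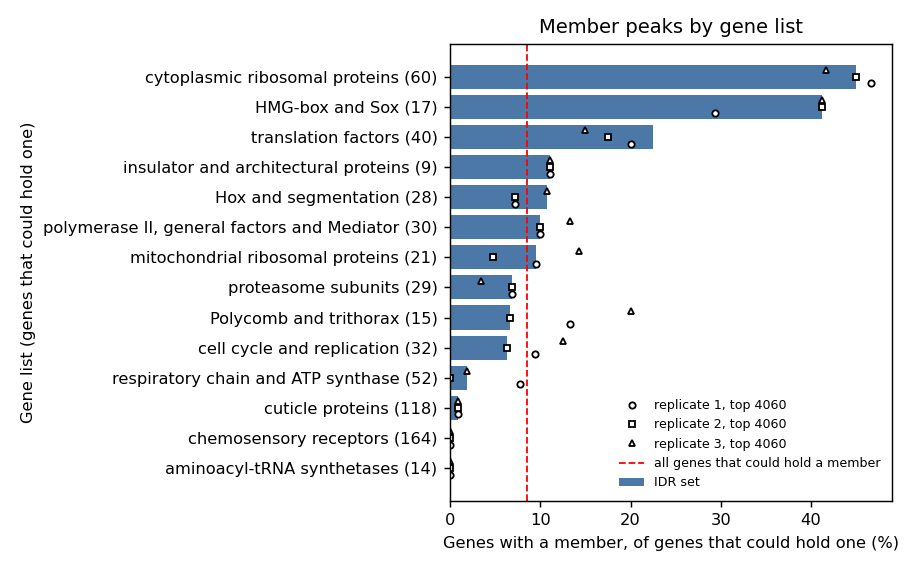
Share of the genes of each list that had a member, of those that could hold one (number in brackets), in the reproducible set (bars) and in each replicate's own 4060 highest regions (open symbols); the dashed line is the background of 8.54%. Cytoplasmic ribosomal protein genes (45.0%), HMG-box and Sox genes (41.2%) and translation factors (22.5%) lay above it in every replicate.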

How the data were processed

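Binding regions of GFP-tagged CG12104 from 3 embryo replicates of 1 group were analysed in dm6. Per the labels and the deposited lists, regions were called for each replicate and for the 3 pooled, and a set reproducible by the irreproducible discovery rate (IDR) was derived. The sources used here do not name the aligner or peak caller. The dm3 lists were not used. The authors deposited a signal value per region, scaled separately in each list, and the −log10 of a q value; the highest q of a member was 0.0152. The IDR set equals the 4060 pooled regions of highest signal. Signal was therefore compared by rank, or as a ratio within a replicate, and a member was matched to a replicate region by at least 1 bp of overlap. Where several regions overlapped, the one of highest signal was taken, so neighbouring members can share a rank. The replicates were separate biosamples of 1 line, so their spread does not cover other lines. Intervals and limits at a count of 0 (3 counts) cover counting error only. They take members or genes as independent draws, which neighbouring peaks are not.

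Start sites were those of all Ensembl BDGP6 protein-coding transcripts, and sequence came from the NCBI Release 6 assembly. Where 2 genes shared a start site, 1 was named. Classes were compared within replicates by exact two-sided sign-flip permutation tests over 3 replicates. Genes were named if nearest to the 20 highest or 3 lowest members, to the members next to each limit, to the 5 with the widest rank range, to the 4 highest of each gene list, or to a member with an enriched word. Genes with several members, translation and HMG-box members beyond these and the DRE sequences were named after their values were seen. Genes of HMG-CoA metabolism and of accessory gland proteins, first caught by symbol, were removed from the lists. Members and lists were chosen with earlier results of these data known. Alternatives covered the distance limits, the start sites used, the number of regions, matching and window sizes. Scripts were tested on simulated data (Python 3.11.15, numpy 2.4.6, pandas 2.3.3, scipy 1.17.1, matplotlib 3.10.9).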

Additional observations from a re-analysis of the deposited data

How the results depend on the processing

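Of 94 alternative values, 66 stayed within the replicate spread or 1.5 times the count, 28 moved and 0 reversed. Most were counts, shares, densities or positions, which have no direction that could reverse, so the 0 says little. The number of members was 619 with start sites within 250 bp and 579 in the stronger part of the set when it is split at the median signal. With an opposing start site within 250 bp, within 1000 bp, or with only the outermost start site of each gene, the share of promoter peaks was 64.6%, 45.1% and 43.4%, and the median position −181, −210 and −188 bp. Density was 195 per Mb with the 250 bp opposing limit, 149 with outermost start sites, and 93.5 and 266 with fewer and more regions taken per replicate, a number that sets the density directly. Members among a replicate's highest regions came to 80.2% with summits within 100 bp and 99.0% in that stronger part. The DRE share was 3.04% within 50 bp and 3.28% in the stronger part. Within 50 and 150 bp the other words were counted in fewer and more windows, as their length sets: GAGAGAG in 1.57% and 11.2%, CAGCTG in 2.85% and 13.0%, TATAAA in 23.3% and 50.7%. For ribosomal protein genes the share was 29.3% of all list genes (6.62% of all protein-coding genes) and 40.0% in the stronger part (4.99% of all genes that could hold a member). G+C content, an alternative chosen after seeing the data, was 31.2% in the stronger part and 38.7% at candidates outside the set. Without each replicate in turn, the share of promoter peaks ran from 49.4% to 52.1%, the density from 158 to 166 per Mb and the signal ratio to divergent peaks from 1.01 to 1.14. No replicate block between groups could be used because there is 1 group; classes of peak were compared within replicates. Depth is unknown, so weak sites outside the set cannot be called absent.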
